A study of Homo sapiens with 12 samples.

Results

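The genes described here are 34 genes of oxygen sensing and glycolysis, taken by gene symbol from the 20979 rows of a table of gene expression values. They were grouped by role into 6 oxygen-sensing genes, 2 genes for secreted products of hypoxia signalling, 6 other hypoxia targets, 3 regulators of glycolytic flux, 9 enzymes of upper glycolysis and 8 of lower glycolysis. Each symbol stood on 1 row, and all 34 genes exceeded 1 FPKM, the unit of the table (fragments scaled to transcript length and library size), in at least 3 libraries and were tested. PolyA RNA-seq measured transcript levels in CAKI-1 and A704, a pair of established human kidney cancer lines, and in HK2, a line immortalised from non-cancerous human kidney. The last is called HK2 cells below, since the hexokinase gene HK2 is also among the 34 genes. Each line was transfected with 25 nM of siRNA in a lipid reagent and harvested at 48 h. The 4 siRNA groups were PTPN14-1 and PTPN14-2, both aimed at the phosphatase gene PTPN14, LATS, aimed at a Hippo-pathway kinase, and a non-targeting control. Each group held 1 library of each line, which makes 3 libraries per siRNA, 4 per line and 12 in all. No oxygen treatment is among the labelled groups. The labels leave unsaid which of LATS1 and LATS2 the LATS siRNA targets, and the titles and descriptions number the PTPN14 siRNAs oppositely, so the title numbers are used. The labels do not describe separate cultures, so each p-value measures the spread between these libraries. With 1 line from normal kidney and 2 cancer lines, origin and line identity cannot be told apart.

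Cells sense oxygen through the alpha subunits of the hypoxia-inducible factors (HIF), encoded by HIF1A and EPAS1. In oxygen, prolyl hydroxylases encoded by EGLN1 and EGLN3 mark these subunits, and the VHL protein, part of a ubiquitin ligase, binds the marked form and sends it for degradation. In low oxygen the subunits pair with the ARNT protein and bind DNA at short sites, for which ACGTG is a common core. This raises transcription of genes for blood vessel growth, glucose uptake and glycolysis. Loss of VHL is a common event in clear cell kidney cancer, where HIF targets are known to stay high in oxygen.

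Promoter windows were examined for the ACGTG core in the RefSeq table, in build GRCh38.p14. A window runs from 250 bases before to 50 bases after a transcript's start, and the letters ACGTG were searched on both strands, where the palindrome CACGTG counts on each. Of the 34 genes, 30 had a window, and 17 of these 30 (56.7%) held the core in at least 1 window. Over all 27305 genes in the table the share was 24.9%. By window, the core lay in 21 of 56 windows of these genes (37.5%) and in 21.4% of all 35116 windows. Such a match is a description of the letters and not a measured site. Other forms of the core were not searched. The stretches below belong to genes that stood above both other lines in A704 (described further on). They are written 5′ to 3′ on the gene's strand, capitals mark each core, and stretches that overlap an annotated untranslated region are kept to 30 bases or fewer. No ACGTG core lay before the start in the windows of EGLN3, ADM and PFKL, which says nothing of a factor's binding elsewhere. VEGFA and NDRG1, also above both other lines in A704, had no window and were not examined.
PFKFB3, chr10:6202804-6202863, plus strand: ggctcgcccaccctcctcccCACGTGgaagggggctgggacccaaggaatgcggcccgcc
PGK1, chrX:78104026-78104085, plus strand: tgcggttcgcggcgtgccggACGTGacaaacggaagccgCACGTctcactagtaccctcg
LDHA, chr11:18394368-18394397, plus strand: actcccagcgCACGTGgagcagtctgccgg
ENO2, chr12:6914452-6914481, plus strand: ccgcgctcgtACGTGcgcctccgccggcag
ALDOA, chr16:30064375-30064404, plus strand: gcagggaggcCACGTGatccgagtcccctc
ALDOC, chr17:28577116-28577145, minus strand: aagtgcccggCACGTGgtaaagggattgtg
TPI1, chr12:6868078-6868104, plus strand: tgcgccgccgCACGTagccccagactc
ANKRD37, chr4:185396669-185396698, plus strand: cgccgggctcCACGTGccagtgtttgtgta
The full palindrome CACGTG stood in the PFKFB3, LDHA, ALDOA, ALDOC and ANKRD37 stretches, and the PGK1 stretch held 2 separate cores. Stretches are cut around the first core, and whole windows can hold more. Over both strands, matches numbered 5 in the LDHA window and 3 each in those of PGK1, ALDOC and ANKRD37.

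The targeted transcripts checked the labels. PTPN14 was at 4.66, 4.09 and 14.86 FPKM with PTPN14-1 and at 5.78, 7.14 and 19.46 FPKM with PTPN14-2, against 18.51, 19.14 and 51.84 FPKM with the control siRNA, in CAKI-1, A704 and HK2 cells in that order. LATS1 was at 0.90, 1.49 and 2.14 FPKM with the LATS siRNA, against 4.0, 4.85 and 7.67 FPKM with the control siRNA. LATS2 was at 8.82, 13.08 and 8.02 FPKM with the LATS siRNA, against 7.21, 11.87 and 8.17 FPKM with the control siRNA, or 122, 110 and 98.2% of control (log2 change 0.12, SE 0.09, adjusted p = 0.618). PTPN14 and LATS1 were thus lowest in the libraries labelled with their siRNAs, while LATS2 with the LATS siRNA was above control in CAKI-1 and A704 and below it in HK2 cells. Effective depth, read from the smallest steps of the values, ran from 16.9 to 23.3 M reads per library, and 10862 to 11082 genes per library exceeded 1 FPKM. Of 7 renal tubule markers, 3 exceeded 1 FPKM throughout CAKI-1, 5 throughout A704 and 3 throughout HK2 cells. The kidney transcription factor gene PAX8 lay between 19.36 and 85.28 FPKM in all 12 libraries. Its relative PAX2 was at 9.81 to 14.33 FPKM in A704, at most 0.01 FPKM in CAKI-1 and listed at 0 in HK2 cells. The epithelial keratin gene KRT8 lay between 136.72 and 389.67 FPKM. The epithelial adhesion genes differed by line, with EPCAM at 0.03 to 0.51 FPKM in the CAKI-1 and A704 libraries and CDH1 at 0.04 to 0.17 FPKM in the CAKI-1 and HK2-cell libraries. Of 5 immune markers 1 exceeded 1 FPKM throughout, CD68, and the list summed to 17.9 to 25.4 FPKM in CAKI-1, 135 to 199 FPKM in A704 and 31.7 to 43.5 FPKM in HK2 cells. The defining leukocyte gene PTPRC was at most 0.04 FPKM. Of 5 fibroblast markers 2, LUM and DCN, exceeded 1 FPKM throughout HK2 cells. That list summed to 0.72 to 1.81 FPKM in CAKI-1, 0.10 to 0.19 FPKM in A704 and 53.5 to 82.0 FPKM in HK2 cells. Endothelial markers summed to at most 0.40 FPKM and erythroid markers to at most 0.24 FPKM. The part of these markers in the line differences below was not tested.

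The lines differed far more than the siRNAs did, and A704 held the highest levels of most hypoxia and glycolysis genes. In 23 of the 34 genes all 4 A704 libraries lay above every library of CAKI-1 and HK2 cells, where 20.7% of the 12276 tested genes did so. The 23 genes included all 8 target genes of the list, all 3 regulators of flux, 11 of the 17 enzymes and EGLN3. In 3 genes, HIF1A, VHL and HK1, all A704 libraries lay below every other library, against 22.3% of tested genes. CAKI-1 lay above both other lines in ARNT alone (17.1% of tested genes) and below both in 9 genes (15.9%). HK2 cells lay above both cancer lines in HIF1A and VHL (24.1%) and below both in 8 genes (22.1%). The plot of all 34 genes shows this layout.

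**Figure D1:**
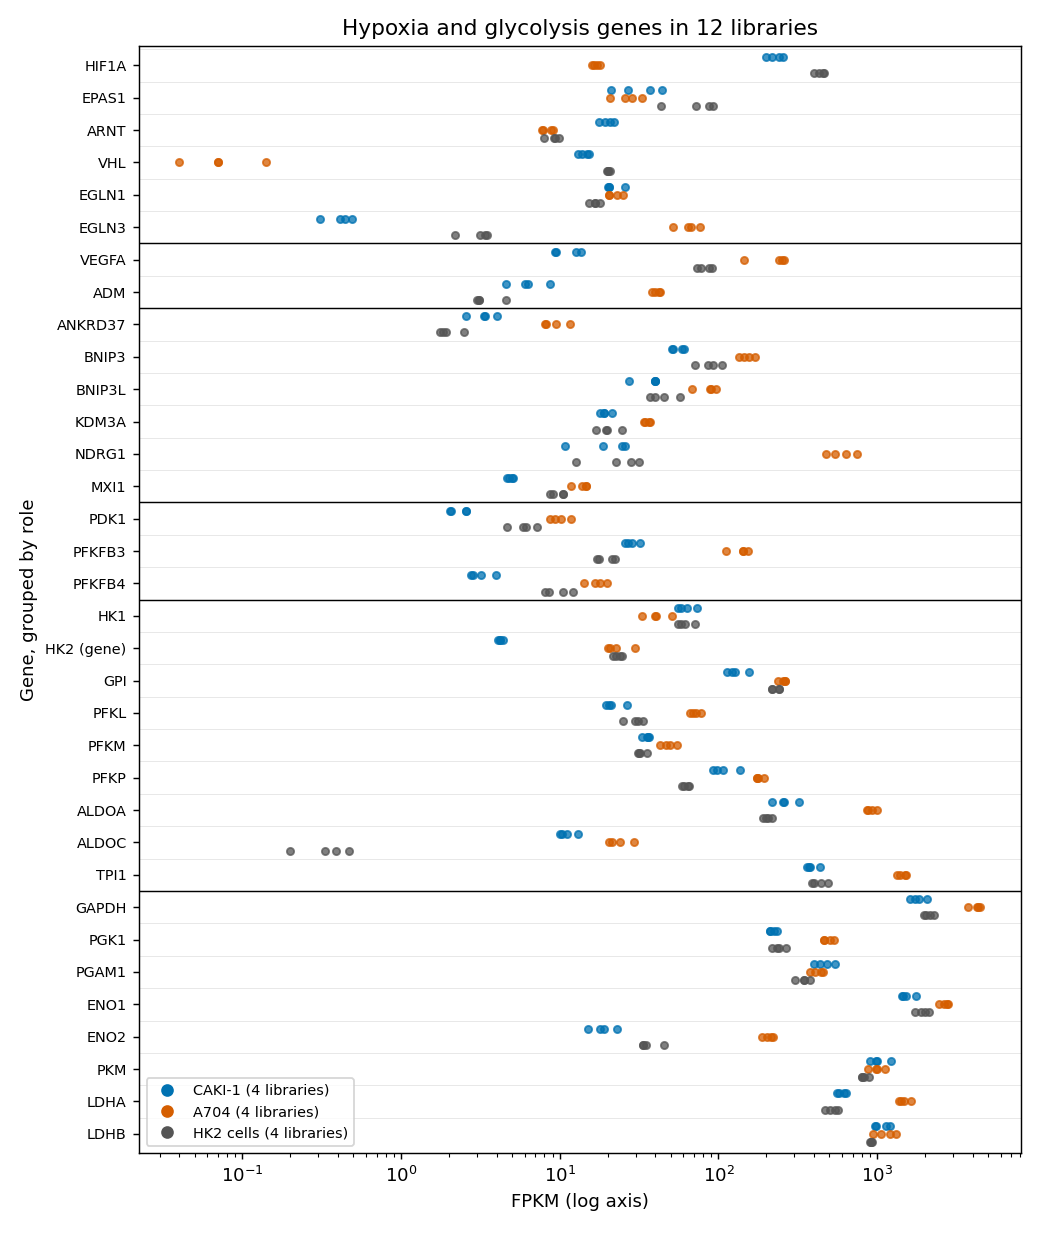
Each row is a gene, grouped by role, and each point is 1 library on a log axis of FPKM, with 4 libraries per line in each colour. A704 points lie to the right of both other lines in 23 of 34 genes, and those of HIF1A, VHL and HK1 lie to the left.

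Values were tested as log2(FPKM + 1) with limma and Benjamini-Hochberg adjustment over all 12276 tested genes. Differences are log2 differences of FPKM + 1, which are smaller than those of FPKM itself for genes of low level. In A704 against HK2 cells, 27 genes were higher and 4 lower past an adjusted p of 0.05, where 84.6% of all tested genes passed in either direction (40.6% higher and 44.0% lower). In CAKI-1 against HK2 cells, 12 were higher and 16 lower, with a background of 81.7% (40.4% higher and 41.3% lower). In CAKI-1 against A704, 4 were higher and 25 lower, with a background of 81.1% (41.8% higher and 39.3% lower). The median log2 difference of the 34 genes was 0.78 in A704 against HK2 cells and -1.21 in CAKI-1 against A704, beside -0.04 and 0.03 over all tested genes. Since most genes differed between any pair of lines, size separates the genes better than the test. A704 stood above both other lines by a log2 difference over 1 in 13 of the 34 genes, against 7.61% of all tested genes, and below both in HIF1A and VHL, against 5.43%. By the same measure CAKI-1 stood above both in ARNT (4.57% of tested genes) and below both in EGLN3, VEGFA, PDK1, PFKFB4 and the hexokinase gene HK2 (3.13%). HK2 cells stood above both in EPAS1 (6.9%) and below both in ALDOC (6.15%). In RNA from whole cultures, fewer cells of a kind and less RNA per cell cannot be told apart.

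Among the oxygen-sensing genes, VHL, the recognition subunit of the ubiquitin ligase, was near 0 in A704. Its levels were 13.88, 15.28, 13.05 and 14.88 FPKM in CAKI-1, 0.07, 0.07, 0.04 and 0.14 FPKM in A704, and 20.84, 20.12, 20.20 and 19.93 FPKM in HK2 cells, with PTPN14-1, PTPN14-2, LATS and control siRNA in that order, as in every list of 4 values below. In A704 this corresponds to about 3.6 to 12 reads per library, an estimate, because the gene lengths of the table are not given. The log2 difference was -4.30 in A704 against HK2 cells (SE 0.07) and 3.82 in CAKI-1 against A704 (SE 0.07). VHL passed the filter of 1 FPKM through the other lines. So did EGLN3, which was under it in CAKI-1 alone, and ALDOC, which was under it in HK2 cells alone. These values are transcript levels and say nothing of the allele behind them.

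HIF1A (chromosome 14, 61695513 to 61748259, plus strand, GRCh38), the alpha subunit gene present in most cell types, was also lowest in A704. It stood at 218.43, 254.22, 200.68 and 239.86 FPKM in CAKI-1, 17.21, 15.90, 16.46 and 17.90 FPKM in A704, and 432.50, 461.73, 398.06 and 454.22 FPKM in HK2 cells. The lines did not overlap, and each pair differed, by -4.61 in A704 against HK2 cells, -0.94 in CAKI-1 against HK2 cells and 3.68 in CAKI-1 against A704 (log2, SE 0.07 each). EPAS1 (chromosome 2, 46293667 to 46386703, plus strand), which encodes HIF-2 alpha, was at 20.94, 27.00, 43.76 and 37.20 FPKM in CAKI-1, 20.75, 25.81, 32.93 and 28.40 FPKM in A704, and 43.42, 92.28, 87.42 and 71.82 FPKM in HK2 cells. It was lower in both cancer lines than in HK2 cells, by -1.17 in CAKI-1 and -1.38 in A704 (SE 0.12 each). CAKI-1 and A704 overlapped, with a difference of 0.21 (SE 0.12, adjusted p = 0.118). The balance of the alpha subunit transcripts differed by line, and EPAS1 made up 12.4% ± 4.18 of the summed HIF1A and EPAS1 FPKM in CAKI-1, 61.1% ± 4.94 in A704 and 14.4% ± 3.94 in HK2 cells (SD, n = 4 libraries each).

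EGLN3 (chromosome 14, 33924231 to 34462774, minus strand), a prolyl hydroxylase gene that is itself a HIF target, showed the largest log2 difference between lines of the 34 genes on the log2(FPKM + 1) scale. VHL had the larger ratio of mean FPKM, 178 in CAKI-1 against A704 and higher in HK2 cells (mean 20.3 FPKM) against A704 (0.08 FPKM). These VHL ratios are imprecise, since they rest on few reads in A704. EGLN3 stood at 0.44, 0.41, 0.49 and 0.31 FPKM in CAKI-1, 51.89, 76.05, 66.87 and 63.87 FPKM in A704, and 3.16, 3.40, 3.47 and 2.20 FPKM in HK2 cells. The mean in A704 was 21.2 times that in HK2 cells (log2 difference 4.02, SE 0.10), and the difference in CAKI-1 against A704 was -5.53 (SE 0.10). The second hydroxylase gene, EGLN1, ranged from 20.09 to 25.75 FPKM in CAKI-1, 20.43 to 24.96 FPKM in A704 and 15.33 to 17.87 FPKM in HK2 cells, higher than HK2 cells by 0.36 in CAKI-1 and 0.40 in A704. ARNT, which encodes the shared partner subunit, was the 1 gene of the list whose CAKI-1 libraries all lay above both other lines, at 17.78 to 21.99 FPKM, beside 7.75 to 9.06 FPKM in A704 and 7.95 to 9.85 FPKM in HK2 cells. A704 and HK2 cells did not differ past the threshold in ARNT (-0.11, SE 0.07, adjusted p = 0.165). The plot of oxygen-sensing genes and targets shows these levels beside those of VEGFA and NDRG1.

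**Figure D2:**
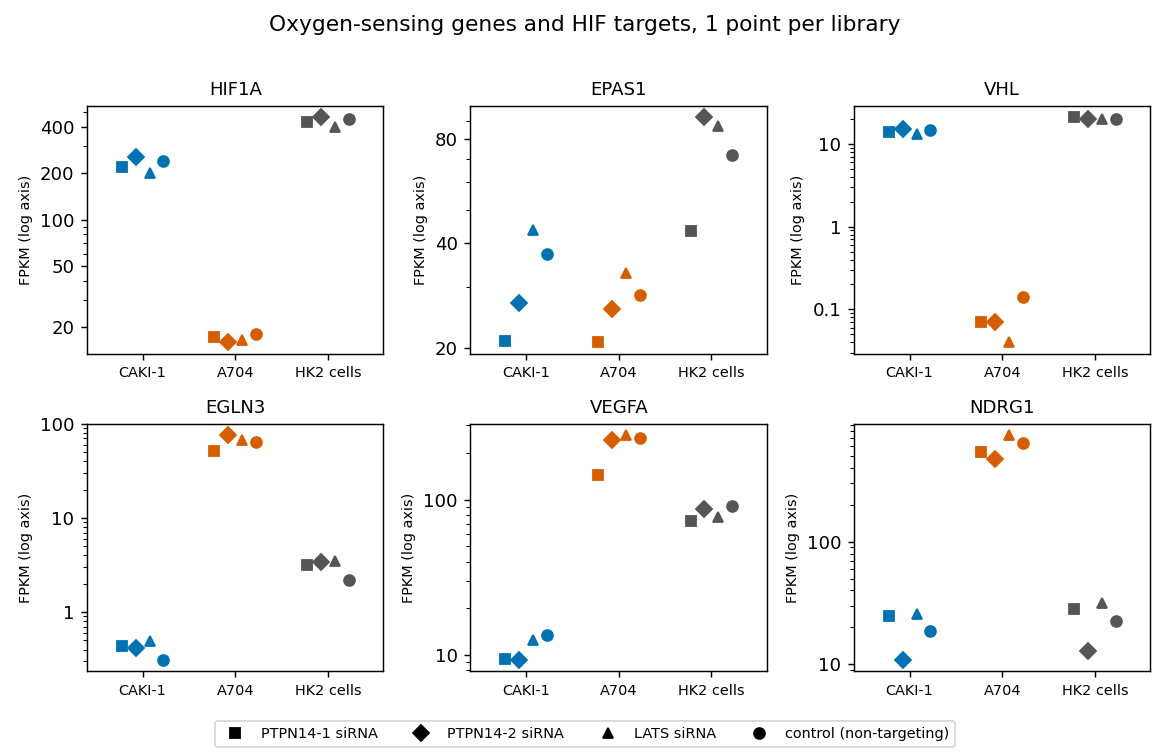
Each panel is a gene, each point is 1 library on a log axis of FPKM, lines run along the x axis and marker shapes give the siRNA. A704 is lowest for HIF1A and VHL and highest for EGLN3, VEGFA and NDRG1, while EPAS1 is highest in HK2 cells except in the PTPN14-1 library at 43.42 FPKM.

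The secreted targets were highest in A704. VEGFA, the main growth factor for blood vessels, was at 9.41, 9.34, 12.59 and 13.56 FPKM in CAKI-1, 144.32, 240.27, 259.82 and 250.31 FPKM in A704, and 73.10, 86.84, 77.34 and 90.91 FPKM in HK2 cells. CAKI-1 was lower than HK2 cells by -2.78 and A704 higher by 1.40 (log2, SE 0.11 each), so the cancer lines lay on opposite sides of HK2 cells. ADM (chromosome 11, 10304680 to 10307397, plus strand), which encodes the vasodilator peptide adrenomedullin, was at 6.01, 4.57, 6.32 and 8.70 FPKM in CAKI-1, 42.96, 38.15, 41.93 and 39.91 FPKM in A704, and 4.60, 3.09, 3.01 and 3.11 FPKM in HK2 cells. It was higher than in HK2 cells by 0.72 in CAKI-1 and by 3.24 in A704 (SE 0.13 each). From the control libraries alone, the CAKI-1 difference from HK2 cells was 1.24, with no test.

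NDRG1, a stress-induced gene and a long-used hypoxia marker, was the most abundant of the 8 target genes in A704. It stood at 24.71, 10.82, 25.59 and 18.77 FPKM in CAKI-1, 543.87, 477.76, 742.13 and 637.52 FPKM in A704, and 28.29, 12.71, 31.63 and 22.45 FPKM in HK2 cells. The A704 mean was 25.3 times that of HK2 cells (log2 difference 4.65, SE 0.12), while CAKI-1 and HK2 cells overlapped (-0.24, SE 0.12, adjusted p = 0.0925). The CAKI-1 difference passed the threshold in 4 of the 12 fits that left out a single library. Its values over all 12 fits ran from -0.32 to -0.16. The other targets kept A704 at the top by smaller steps. ANKRD37, a gene of little known function used as a hypoxia marker, was at 2.58 to 4.02 FPKM in CAKI-1, 8.12 to 11.54 FPKM in A704 and 1.76 to 2.48 FPKM in HK2 cells. BNIP3 and BNIP3L, which encode mitophagy receptors, reached 135.32 to 170.23 and 67.63 to 96.65 FPKM in A704, and were higher there than in HK2 cells by 0.78 and 0.93. BNIP3 has 39 named pseudogenes in the GENCODE annotation, to which the authors' counting could assign reads. KDM3A, a histone demethylase gene, and MXI1, an antagonist of MYC, were higher in A704 than in HK2 cells by 0.79 and 0.46, and lower in CAKI-1 than in A704 by -0.85 and -1.32.

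The 3 regulators of glycolytic flux were each higher in A704 than in any library of the other lines. PFKFB3 (chromosome 10, 6144934 to 6254644, plus strand), whose enzyme makes the activator of phosphofructokinase, and whose window with a CACGTG palindrome is printed above, was at 28.61, 26.74, 31.86 and 25.73 FPKM in CAKI-1, 152.99, 111.46, 142.44 and 141.89 FPKM in A704, and 17.61, 17.15, 22.14 and 21.21 FPKM in HK2 cells. The A704 mean was 7.03 times that of HK2 cells (log2 difference 2.75, SE 0.09), and CAKI-1 was higher than HK2 cells by 0.51 (SE 0.09), or 0.27 in the control libraries alone. PFKFB4, its homologue, was at 2.75 to 3.94 FPKM in CAKI-1, 14.24 to 19.70 FPKM in A704 and 8.03 to 12.08 FPKM in HK2 cells. PDK1, the kinase that turns off pyruvate dehydrogenase, was at 2.03 to 2.58 FPKM in CAKI-1, 8.73 to 11.79 FPKM in A704 and 4.67 to 7.13 FPKM in HK2 cells. PFKFB4 and PDK1 were lowest in CAKI-1, by -1.36 and -1.06 against HK2 cells.

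Together the 17 glycolysis enzyme genes made up 1.99% ± 0.134 of the summed FPKM of a library in CAKI-1, 4.09% ± 0.21 in A704 and 2.27% ± 0.102 in HK2 cells (SD, n = 4 libraries each). Isoforms differed unequally within this sum. At the first step, HK1, the widely expressed hexokinase gene, was lowest in A704 at 32.82 to 50.97 FPKM, beside 55.61 to 73.56 FPKM in CAKI-1 and 55.18 to 71.02 FPKM in HK2 cells. The hexokinase gene HK2, an inducible form, was at 4.18, 4.07, 4.19 and 4.41 FPKM in CAKI-1, 29.95, 20.07, 20.84 and 22.67 FPKM in A704, and 24.57, 21.69, 22.58 and 24.02 FPKM in HK2 cells. It was lower in CAKI-1 by -2.21 against each other line (SE 0.08), and A704 and HK2 cells differed by -0.01 (SE 0.08, adjusted p = 0.954), a sign that turned to 0.01 under upper-quartile scaling and under quantile normalisation. Its share of the hexokinase FPKM was 6.36% ± 0.655 in CAKI-1, 36.2% ± 1.61 in A704 and 27.5% ± 2.31 in HK2 cells (SD, n = 4).

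The next steps are isomerisation by GPI, phosphorylation by the phosphofructokinases and cleavage by the aldolases. GPI was lowest in CAKI-1, at 113.19 to 156.29 FPKM, beside 238.72 to 261.98 FPKM in A704 and 217.47 to 240.89 FPKM in HK2 cells, and A704 and HK2 cells overlapped (0.15, SE 0.07, adjusted p = 0.0799). Among the phosphofructokinases, PFKL, PFKM and PFKP were each higher in A704 than in HK2 cells, by 1.23, 0.56 and 1.51. PFKL made up 13.3% ± 0.601 of the 3 in CAKI-1, 23.7% ± 0.747 in A704 and 23.8% ± 1.81 in HK2 cells (SD, n = 4). ALDOA, the main aldolase gene outside liver and brain, was at 218.85 to 323.28 FPKM in CAKI-1, 867.72 to 992.00 FPKM in A704 and 192.04 to 216.74 FPKM in HK2 cells. ALDOC, the brain form (chromosome 17, 28573115 to 28577264, minus strand), was the enzyme gene with the widest line difference on the log2(FPKM + 1) scale. It was at 11.07, 10.00, 13.01 and 10.31 FPKM in CAKI-1, 21.45, 23.84, 29.20 and 20.42 FPKM in A704, and 0.33, 0.39, 0.20 and 0.47 FPKM in HK2 cells. It was higher than in HK2 cells by 3.16 in CAKI-1 and 4.19 in A704 (SE 0.11 each), yet it never exceeded 4.37% of the aldolase FPKM. TPI1, the triose isomerase gene, was at 360.64 to 438.17 FPKM in CAKI-1, 1336.77 to 1527.06 FPKM in A704 and 389.73 to 491.55 FPKM in HK2 cells.

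In lower glycolysis, GAPDH, often used as a reference transcript, was itself higher in A704 than in HK2 cells by 0.99 (SE 0.08). It ranged from 1602.10 to 2075.43 FPKM in CAKI-1, 3732.45 to 4478.13 FPKM in A704 and 1982.11 to 2295.83 FPKM in HK2 cells, and GENCODE names 62 pseudogenes of it. PGK1 and ENO1 were higher in A704 than in HK2 cells by 1.03 and 0.46. ENO2 (chromosome 12, 6913745 to 6923698, plus strand), the neuronal enolase gene, was at 18.02, 15.11, 22.88 and 18.87 FPKM in CAKI-1, 201.79, 189.07, 222.08 and 215.44 FPKM in A704, and 33.58, 34.86, 45.52 and 33.30 FPKM in HK2 cells. The A704 mean was 5.63 times that of HK2 cells (log2 difference 2.47, SE 0.08), and CAKI-1 was lower than A704 by -3.41 (SE 0.08). ENO2 made up 1.19% ± 0.105 of enolase FPKM in CAKI-1, 7.25% ± 0.793 in A704 and 1.86% ± 0.173 in HK2 cells (SD, n = 4). PGAM1 and PKM, the mutase and the pyruvate kinase, did not pass the threshold between the cancer lines, with differences of 0.14 (adjusted p = 0.0983) and 0.05 (adjusted p = 0.605) in CAKI-1 against A704.

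The last step, between pyruvate and lactate, differed in its subunits. LDHA (chromosome 11, 18394388 to 18408425, plus strand), the subunit gene induced by HIF, was at 560.84 to 639.26 FPKM in CAKI-1, 1376.79 to 1634.69 FPKM in A704 and 468.68 to 565.20 FPKM in HK2 cells, a log2 difference of 1.5 in A704 against HK2 cells (SE 0.07). LDHB, the subunit gene common in oxidative tissues, lay between 902.26 and 1315.04 FPKM in all 12 libraries. LDHA made up 35.8% ± 3.01 of lactate dehydrogenase FPKM in CAKI-1, 56.7% ± 2.89 in A704 and 36.2% ± 1.87 in HK2 cells (SD, n = 4), as the plot of isoform shares shows.

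**Figure D3:**
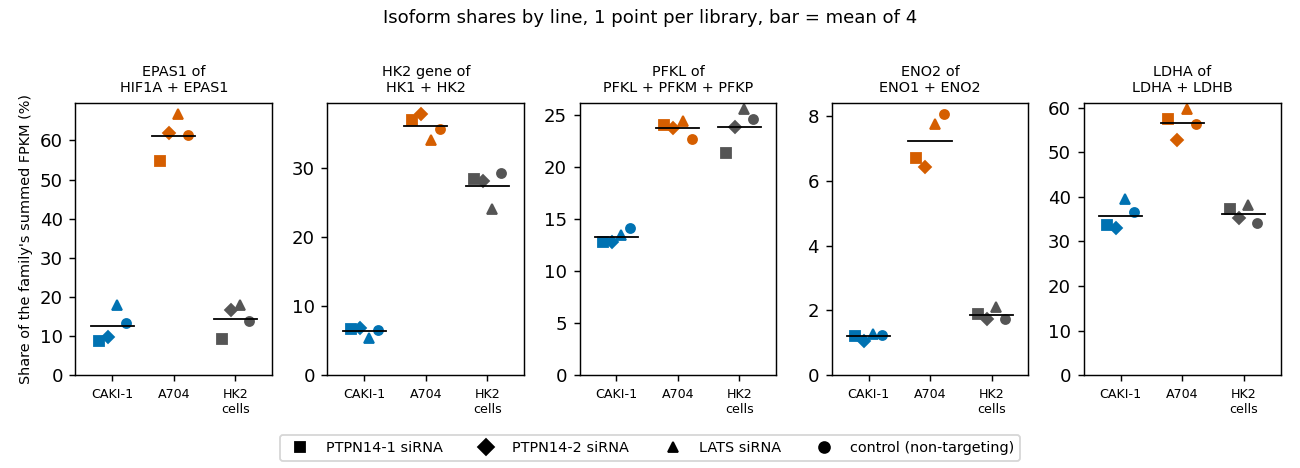
Each panel gives 1 gene's share, in percent of the summed FPKM of its family, with 1 point per library, shapes for siRNAs and a bar at the mean of the 4 libraries of a line. A704 has the highest EPAS1, HK2-gene, ENO2 and LDHA shares, at means of 61.1, 36.2, 7.25 and 56.7%, and CAKI-1 has the lowest PFKL share, at 13.3%.

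Other genes of the same pathways were read from lists of 77 genes, of which 62 were tested. Of 24 tested HIF targets outside the 34 genes, 14 stood above both other lines in A704 by a log2 difference over 1, against 7.61% of all tested genes, or 13 of 23 without NDUFA4L2. NDUFA4L2, a HIF-induced mitochondrial protein gene that passed the filter through A704 alone, was at 0.51, 0.39, 0.97 and 0.60 FPKM in CAKI-1, 492.64, 525.58, 607.75 and 483.29 FPKM in A704, and 0.18, 0.07, 0.29 and 0.32 FPKM in HK2 cells. CA9, the carbonic anhydrase gene used as a hypoxia and clear cell kidney cancer marker, was at 0.04 to 0.21 FPKM in CAKI-1, 114.28 to 126.93 FPKM in A704 and 1.42 to 2.81 FPKM in HK2 cells. SLC2A1, the main glucose transporter gene, was at 8.10 to 9.99 FPKM in CAKI-1, 148.52 to 203.99 FPKM in A704 and 49.98 to 67.34 FPKM in HK2 cells. LOX, which encodes a collagen-crosslinking enzyme, was higher in A704 than in HK2 cells by 3.55 (SE 0.10). The same count was 1 of 10 among other genes of the HIF system, 1 of 11 among other glycolysis genes, 2 of 15 among genes of pyruvate and lactate handling and 0 of 2 among gluconeogenesis genes. FBP1, the gluconeogenic phosphatase gene, reached at most 0.03 FPKM in any library, and PCK1 was at 0.05 to 0.17 FPKM in A704 and listed at 0 in the other lines.

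The siRNA comparisons asked whether silencing PTPN14 or LATS, negative regulators of the Hippo pathway's coactivators, changed these genes. They were fitted over the 3 lines with line as a block, so that each siRNA library is read against the control library of its own line. The comparisons with control share the same 3 control libraries. With PTPN14-1 2 of the 34 genes, EPAS1 and VEGFA, fell and none rose, where 5.87% of all tested genes passed (3.47% lower and 2.39% higher). With PTPN14-2 1 gene, NDRG1, fell, where 1.35% of all tested genes passed (0.904% lower and 0.448% higher). With LATS siRNA none passed, where 0.122% of all tested genes did. None of the 34 genes was called with both PTPN14 siRNAs. The share of all tested genes called with both cannot exceed the 1.35% called with PTPN14-2. At such a share, none among 34 genes says nothing particular of them. The map of fitted changes gives every gene.

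**Figure D4:**
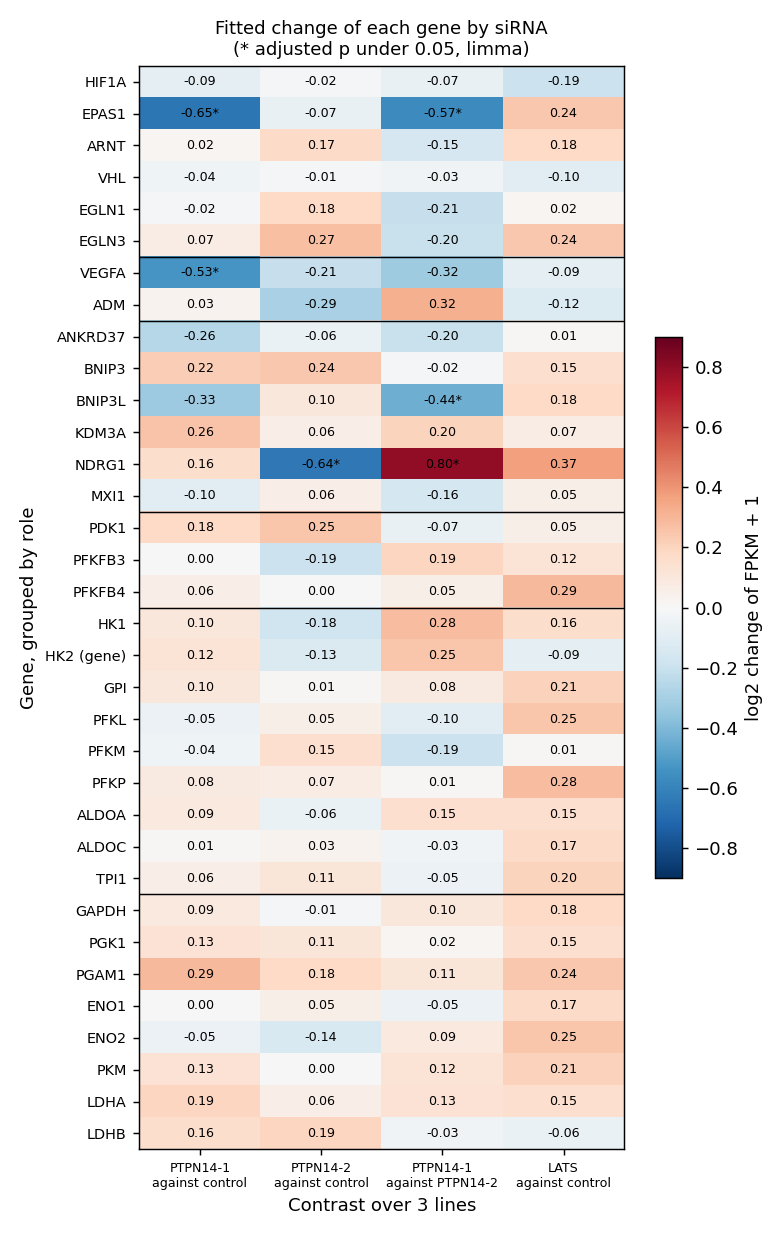
Rows are the 34 genes by role and columns are contrasts over the 3 lines, and each cell gives the fitted log2 change of FPKM + 1, with an asterisk at an adjusted p under 0.05 (limma). Asterisks stand at EPAS1, VEGFA, NDRG1 and BNIP3L alone, and the LATS column is mostly above 0 with no asterisk.

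EPAS1 was at 20.94 FPKM in CAKI-1, 20.75 FPKM in A704 and 43.42 FPKM in HK2 cells with PTPN14-1, against 37.20, 28.40 and 71.82 FPKM with control siRNA. These are 56.3, 73.1 and 60.5% of control, lower in 3 of 3 lines, as were 21.0% of all tested genes. The log2 change was -0.65 (SE 0.14, limma adjusted p = 0.0188). EPAS1 was named for its small p in this fit, which favours such agreement, so the agreement adds no support. With PTPN14-2 EPAS1 was at 72.6, 90.9 and 128% of control (-0.07, SE 0.14, adjusted p = 0.847). PTPN14-1 was lower than PTPN14-2 in all 3 lines by -0.57 (SE 0.14, adjusted p = 0.0192). The same limit holds for this agreement, and 23.2% of all tested genes were lower in all 3 lines. The call against control was lost without the control library of any line (-0.72 to -0.56, adjusted p = 0.0524 to 0.0966), the PTPN14-1 library of HK2 cells (-0.54, adjusted p = 0.104) or of CAKI-1 (-0.64, adjusted p = 0.0546), or without all of HK2 cells (adjusted p = 0.0716) or CAKI-1 (adjusted p = 0.0966). The difference between the PTPN14 siRNAs was lost without either of their HK2-cell libraries (-0.36, adjusted p = 0.0706, and -0.46, adjusted p = 0.0973), without all of HK2 cells (-0.33, adjusted p = 0.173) or without the PTPN14-1 library of CAKI-1 (adjusted p = 0.056). The direction was the same in each of these.

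VEGFA was at 9.41 FPKM in CAKI-1, 144.32 FPKM in A704 and 73.10 FPKM in HK2 cells with PTPN14-1, against 13.56, 250.31 and 90.91 FPKM with control siRNA. These are 69.4, 57.7 and 80.4% of control, and the log2 change was -0.53 (SE 0.13, limma adjusted p = 0.037). With PTPN14-2 it was at 68.9, 96.0 and 95.5% of control (-0.21, SE 0.13, adjusted p = 0.495), lower in CAKI-1 and close to control in A704 and HK2 cells. The PTPN14 siRNAs did not differ past the threshold (-0.32, SE 0.13, adjusted p = 0.134). The fall was largest in A704, and without the PTPN14-1 library of A704 the change was -0.35 (adjusted p = 0.0995). The call was also lost without the control library of any line (-0.56 to -0.49, adjusted p = 0.101 to 0.136), the PTPN14-1 library of HK2 cells (-0.64, adjusted p = 0.0511) or any whole line (-0.64 to -0.40, adjusted p = 0.108 to 0.128).

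NDRG1 lay on opposite sides of its control with the PTPN14 siRNAs in CAKI-1 and HK2 cells. It was at 24.71, 543.87 and 28.29 FPKM with PTPN14-1 and 10.82, 477.76 and 12.71 FPKM with PTPN14-2, against 18.77, 637.52 and 22.45 FPKM with control siRNA, in CAKI-1, A704 and HK2 cells. This is 132, 85.3 and 126% of control with PTPN14-1 and 57.6, 74.9 and 56.6% with PTPN14-2. The fall with PTPN14-2 was -0.64 (SE 0.14, limma adjusted p = 0.0464), the value with PTPN14-1 was 0.16 (SE 0.14, adjusted p = 0.549), and PTPN14-1 was higher than PTPN14-2 by 0.80 (SE 0.14, adjusted p = 0.00387). The fall with PTPN14-2 was close to the threshold and was lost in 11 of 15 fits that left out a library or a line, at values of -0.67 to -0.53. These were the fits without the control library of any line, the LATS library of any line, the PTPN14-2 libraries of CAKI-1 and HK2 cells, the PTPN14-1 library of HK2 cells, or all of CAKI-1 or HK2 cells. The adjusted p reached 0.349. The difference between the PTPN14 siRNAs was lost without all of HK2 cells (0.65, adjusted p = 0.0859) or all of CAKI-1 (0.64, adjusted p = 0.0841).

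BNIP3L, a mitophagy receptor gene, was at 27.36, 67.63 and 37.24 FPKM with PTPN14-1, against 40.06, 96.65 and 45.13 FPKM with PTPN14-2, in CAKI-1, A704 and HK2 cells. PTPN14-1 was lower in all 3 lines by -0.44 (SE 0.10, limma adjusted p = 0.0141). This made 3 of 34 genes that differed between the PTPN14 siRNAs, 1 higher and 2 lower with PTPN14-1, where 11.7% of all tested genes did (5.52% higher and 6.18% lower). BNIP3L was named for its small p in this fit, which favours agreement over the lines, so the agreement adds no support. The BNIP3L difference was lost without the PTPN14-2 library of A704 (-0.39, adjusted p = 0.0666) or CAKI-1 (-0.42, adjusted p = 0.0586), the PTPN14-1 library of CAKI-1 (-0.39, adjusted p = 0.0592), all of A704 (-0.40, adjusted p = 0.0941) or all of CAKI-1 (-0.39, adjusted p = 0.114). Against control, BNIP3L was at -0.33 with PTPN14-1 (SE 0.10, adjusted p = 0.0681) and 0.10 with PTPN14-2 (SE 0.10, adjusted p = 0.676). The plot of percent of control shows the 4 called genes by line.

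**Figure D5:**
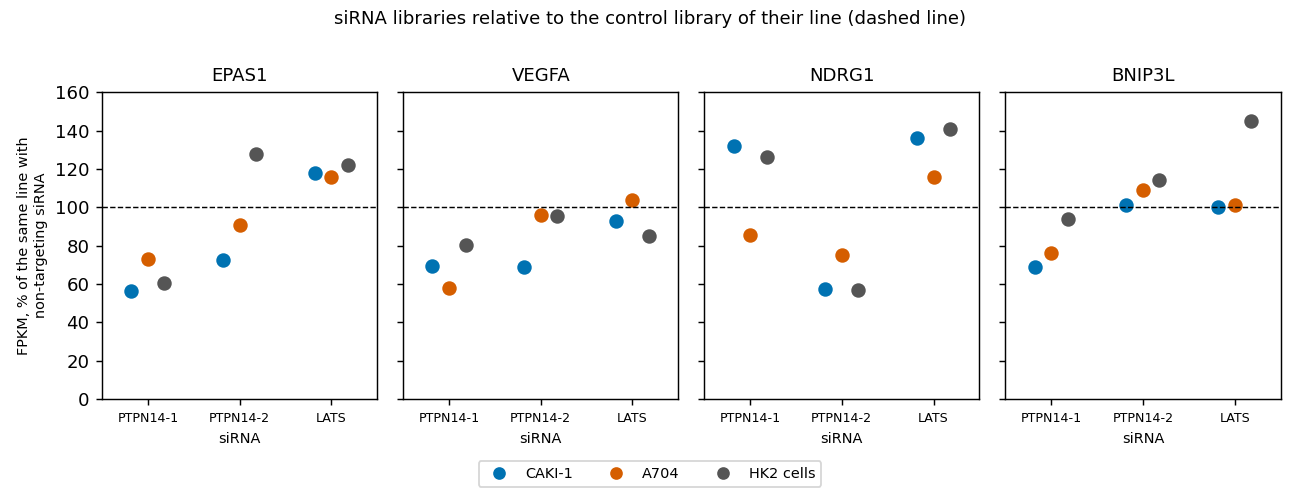
Each point is 1 siRNA library's FPKM as a percentage of the control library of the same line, with colours for lines and a dashed line at 100%. EPAS1 and VEGFA lie below 100% in all 3 lines with PTPN14-1, and NDRG1 does so with PTPN14-2. The genes were named for small p, which favours such agreement.

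With the 2 PTPN14 siRNAs pooled against control, none of the 34 genes passed in limma, where 0.0244% of all tested genes did (0.00815% higher and 0.0163% lower), and 3 of the 34 (8.82%) had an unadjusted p under 0.05, below the 1250 of all tested genes (10.2%). These were PGAM1 at 0.23 (adjusted p = 0.38), VEGFA at -0.37 (adjusted p = 0.42) and BNIP3 at 0.23 (adjusted p = 0.459). In this fit the difference between the 2 PTPN14 siRNAs stays in the spread, which limits what can pass. With the siRNAs fitted apart and their average set against control, 149 of 12276 tested genes passed in limma, and still none of the 34. PGAM1 was at 484.91, 457.34 and 377.37 FPKM with PTPN14-1 and 434.77, 441.70 and 345.93 FPKM with PTPN14-2, against 400.23, 378.50 and 303.71 FPKM with control siRNA, in CAKI-1, A704 and HK2 cells, so all 6 PTPN14 libraries were above their controls. PGAM1 was named for its small p in this fit, which favours such agreement, so the agreement adds no support. PGAM1 has 13 named pseudogenes. Of the oxygen-sensing genes other than EPAS1, HIF1A and VHL had log2 changes of -0.09 and -0.04 with PTPN14-1 and -0.02 and -0.01 with PTPN14-2, and neither passed (adjusted p = 0.558 to 0.953). The 17 enzyme genes had median log2 changes of 0.09 with PTPN14-1 and 0.05 with PTPN14-2, beside 0.002 and -0.002 over all tested genes. By line, those above control numbered 10, 14 and 13 of 17 with PTPN14-1 (medians 0.03, 0.18 and 0.04) and 5, 14 and 11 of 17 with PTPN14-2 (medians -0.06, 0.14 and 0.06), in CAKI-1, A704 and HK2 cells. Over all tested genes, 49.4, 48.8 and 48.8% were above control with PTPN14-1 and 48.0, 49.2 and 48.9% with PTPN14-2. Each count sets 1 library against 1 control library, so the genes in it are not separate observations.

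With the LATS siRNA, no gene of the 34 passed in limma, while 11 (32.4%) had an unadjusted p under 0.05, as did 1381 of all tested genes (11.2%). The fitted value was above 0 for 28 of the 34 genes, where 49.0% of all tested genes were, and the median was 0.16 beside -0.003. Of the 17 enzyme genes, 15 had values above 0, with a median of 0.17 and a highest value of 0.28. In 19 of the 34 genes the LATS library was above control in all 3 lines, as were 18.2% of all tested genes. By line, the enzyme genes above control numbered 15 of 17 in CAKI-1 (median log2 change 0.22), 13 of 17 in A704 (0.05) and 15 of 17 in HK2 cells (0.17). Over all tested genes, 48.8, 49.2 and 48.5% were above control in these lines. Each count again sets 1 library against 1 control library, so its genes are not separate observations. The 3 genes with the smallest p were enzyme genes. PFKP, the platelet phosphofructokinase gene, was at 136.71, 192.30 and 65.49 FPKM with LATS siRNA, against 92.35, 174.72 and 59.02 FPKM with control siRNA, in CAKI-1, A704 and HK2 cells (0.28, adjusted p = 0.296). PFKL was at 26.66, 77.30 and 33.39 FPKM with LATS siRNA, against 20.51, 65.80 and 29.64 FPKM with control siRNA (0.25, adjusted p = 0.325). ENO2 was at 22.88, 222.08 and 45.52 FPKM with LATS siRNA, against 18.87, 215.44 and 33.30 FPKM with control siRNA (0.25, adjusted p = 0.337). All 9 pairs lay in the same direction, by amounts that differed between lines. Choosing genes by the smallest p in this fit favours such agreement, so it adds no support. HIF1A was the other way, at 200.68, 16.46 and 398.06 FPKM with LATS siRNA, against 239.86, 17.90 and 454.22 FPKM with control siRNA (-0.19, adjusted p = 0.409).

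Whether the siRNA changes differed between lines was tested by the interaction of line with siRNA target. No gene of the 34 passed in limma, none had an unadjusted p under 0.05, and 0.0% of all tested genes passed (119 genes had an unadjusted p under 0.05). The 4 genes with the smallest unadjusted p were BNIP3 (0.0829), ALDOC (0.0851), ADM (0.217) and ALDOA (0.253), each with an adjusted p of 1.0. This test has 3 residual degrees of freedom, all from the paired PTPN14 libraries.

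In the wider pathway lists, SLC2A3, a high-affinity glucose transporter gene and HIF target, was at 10.52, 80.96 and 31.93 FPKM with PTPN14-1 and 4.21, 39.70 and 11.87 FPKM with PTPN14-2, against 8.31, 60.95 and 19.98 FPKM with control siRNA, in CAKI-1, A704 and HK2 cells. It rose with PTPN14-1 (0.45, SE 0.08, limma adjusted p = 0.0084) and fell with PTPN14-2 (-0.72, SE 0.08, adjusted p = 9.5e-04), and PTPN14-1 was higher than PTPN14-2 by 1.17 (SE 0.08, adjusted p = 1.49e-05). The difference passed in all 15 fits that left out a library or a line. The rise was lost without the PTPN14-1 library (0.38, adjusted p = 0.0536) or the control library (0.40, adjusted p = 0.0623) of HK2 cells or all of HK2 cells (0.36, adjusted p = 0.162), and the fall without all of CAKI-1 (-0.66, adjusted p = 0.0647). Without a filter on low values both the rise (adjusted p = 0.0718) and the fall (adjusted p = 0.0614) were lost. Without the line as a block, the rise, the fall and the difference between the siRNAs were all lost. Of the 62 other pathway genes tested, 7 passed with PTPN14-1 (11.3%, against 5.87% of all tested genes), 6 higher and 1 lower. With PTPN14-2 2 passed (3.23%, against 1.35%), and 8 differed between the siRNAs (12.9%, against 11.7%), 4 in each direction, a share near that of all genes. None passed with LATS siRNA or with the PTPN14 siRNAs pooled in limma, where 10 and 9 of them (16.1 and 14.5%) had an unadjusted p under 0.05, as did 11.2 and 10.2% of all tested genes.

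The collagen-modifying enzyme gene PLOD2 rose with both PTPN14 siRNAs, by 0.39 (adjusted p = 0.0356) with PTPN14-1 and 0.46 (adjusted p = 0.0375) with PTPN14-2. It was at 122.98, 331.95 and 83.06 FPKM with PTPN14-1 and 149.41, 314.50 and 83.07 FPKM with PTPN14-2, against 105.67, 258.00 and 54.45 FPKM with control siRNA, in CAKI-1, A704 and HK2 cells. The other genes that rose with PTPN14-1 were TMEM45A (0.66), BPGM (0.34), PGM2 (0.45) and PDP1 (0.43), the last a phosphatase that reactivates pyruvate dehydrogenase. DDIT4, a stress-induced inhibitor of mTOR signalling, fell by 0.47 on the log2 scale with PTPN14-1. Both subunit genes of the mitochondrial pyruvate carrier, MPC1 and MPC2, were lower with PTPN14-1 than with PTPN14-2, by -0.41 and -0.48, MPC1 being named after its value was seen, as were PDHA1 (-0.34) and PC (-0.42), while TMEM45A, BPGM and PDP1 were higher by 0.46, 0.28 and 0.45. TMEM45A was under 1 FPKM throughout HK2 cells (0.27 to 0.69 FPKM). PC was under 1 FPKM throughout A704 (0.39 to 0.76 FPKM) and with PTPN14-1 in CAKI-1 (0.97 FPKM) and HK2 cells (0.83 FPKM). Their changes thus rest partly on low values. The TMEM45A change with PTPN14-1 was 0.45 (adjusted p = 0.0322) without the PTPN14-1 library of A704, 0.49 (adjusted p = 0.0713) without its control library and 0.38 (adjusted p = 0.102) without all of A704. Its difference between the PTPN14 siRNAs was 0.25 (adjusted p = 0.168) without the PTPN14-1 library of A704 and 0.29 (adjusted p = 0.161) without all of A704. Apart from MPC1, which was not refitted, every call in this paragraph was lost in some of the 15 fits that left out a library or a line, from 2 fits for MPC2 to 13 for BPGM between the PTPN14 siRNAs, at adjusted p-values up to 0.347. The PLOD2 calls were lost in 9 fits with PTPN14-1 and 11 with PTPN14-2. All these refitted calls were also lost without a filter on low values (adjusted p = 0.0531 to 0.243). PLOD2 lost its call with PTPN14-1 under quantile normalisation (adjusted p = 0.0773), and with PTPN14-2 under a filter of 0.1 FPKM (0.0526) and without trend and robust moderation (0.0507). Between the PTPN14 siRNAs, TMEM45A lost its call under the last 2 settings (0.0594 and 0.0502) and BPGM under both of these (0.0577 and 0.0535), upper-quartile scaling (0.0514) and quantile normalisation (0.0593).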

How the data were processed

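PolyA RNA-seq of 12 libraries was deposited as 1 gene table, in FPKM as read from its values, which the authors rounded to 2 decimals. Alignment used STAR 2.4.0g1 and GRCh38.p1, per the submitters' processing notes, and the kit marks strand, per the labels' protocols. The counter, annotation, strand setting and scaling were not given in the sources used here, and 15 of the 34 genes have an exon that overlaps a gene on the other strand. Rows above 1 FPKM in at least 3 libraries (12276) were tested as log2(FPKM + 1) with limma 3.58.1 in R 4.3.3, moderated robustly around a trend (statmod 1.5.0), at a Benjamini-Hochberg adjusted p of 0.05 over all rows tested. The siRNA fits had the line as a block, since libraries of 1 line share their cells (correlations of same-line deviations from siRNA means 0.958 to 0.983 over 18 pairs, and -0.652 to -0.381 between lines). The negative values follow from subtracting a mean over 1 library of each line, so they are no evidence of pairing. The line fits had a term for siRNA. Values in the text were named by rule: for each siRNA comparison the genes past the threshold, or the 3 with the smallest p, for lines the 10 with the largest difference, for the interaction 4, and up to 4 per other list. EPAS1, whole-group ranges and further members were added for completeness. The 34 genes and the lists were chosen with earlier results of these data known. Loci are from GENCODE v29. The fits were tested on simulated data. Alternatives changed the pseudocount, filter, scaling, moderation, block, siRNA coding and the libraries used.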

Additional observations from a re-analysis of the deposited data

Results flagged for a closer look

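In 136 groups of values (each gene in the 4 libraries of a line, and its changes in the 6 PTPN14 libraries), 7 had 1 value whose gap to the next, as a share of the range, exceeded the 95% critical value for that number of samples, and chance flags about 1 in 20 groups. Gaps here are of log2(FPKM + 1). EGLN1 was high in the PTPN14-2 library of CAKI-1, at 25.75 FPKM (gap share 0.919). VEGFA was low in the PTPN14-1 library of A704, at 144.32 FPKM (0.867). BNIP3L was low in the PTPN14-1 library of CAKI-1, at 27.36 FPKM (0.979). ADM was high in the PTPN14-1 library of HK2 cells, at 4.60 FPKM (0.926), PFKM in the PTPN14-2 library of HK2 cells, at 35.56 FPKM (0.865), and ENO2 in the LATS library of HK2 cells, at 45.52 FPKM (0.854). The hexokinase gene HK2 had its highest change in the PTPN14-1 library of A704, at 0.39 (0.641). The VEGFA and BNIP3L values enter calls given above.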

How the results depend on the processing

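Libraries pair across siRNAs by cell line, and without the replicate block 0 genes of the 34 passed in any siRNA comparison. Without a filter on low values the counts were 0 for genes lower with PTPN14-1, 0 for genes lower with PTPN14-2, and 0 in both directions between the PTPN14 siRNAs. The single gene lower with PTPN14-2, NDRG1, also passed in 0 cases with a pseudocount of 0.1 (adjusted p = 0.0519), a filter of 0.1 FPKM (0.0668), quantile normalisation (0.0738) or no trend and robust moderation (0.0565). The other alternatives that kept all libraries left these counts within 1.5 times. Leaving out each library or line gave 0 to 3 genes lower and 0 to 1 higher with PTPN14-1, 0 to 1 lower with PTPN14-2, and 0 to 1 higher and 0 to 2 lower between them. The count above both lines in A704 was 12 to 14. The hexokinase gene HK2, in A704 against HK2 cells, turned to 0.01 under upper-quartile scaling and quantile normalisation and ran from -0.11 to 0.04 over left-out libraries. The cause was not tested. The median over all genes moved by under 0.1 in every scaling. Values near the file's rounding, as for VHL in A704, and 1 library per line and siRNA limit the precision.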
